A study of Drosophila melanogaster with 36 samples.

Results

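Acyl-CoA synthetases are the enzymes that attach fatty acids, or acetate, to coenzyme A. The transcripts of Acsx3, Acsx1L, Acsx1R, Acsx2, Acsx4, Acsl, bgm and AcCoAS were followed through 2 days in the abdominal fat body of male fruit flies (Drosophila melanogaster). They were chosen by gene symbol because Acsx3 cycles in WT fat body, so their WT rhythms are given as descriptions with no test. Of 9 symbols, 8 were found among the 12549 gene symbols annotated on the array, on 8 of its 18769 probe sets that are not controls. Acsx5 was not analysed here. Acsx1L, Acsx2, Acsx3, Acsx4, Acsl, bgm and AcCoAS had 1 probe set each that names no other gene. A further probe set is annotated to both Acsx1L and Acsx1R, so its signal cannot be assigned to either, and Acsx1R had no probe set of its own.

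The study set flies labelled dnClk, sampled every 4 h on 12 arrays, against flies labelled WT, sampled every 2 h on 24 arrays. The name dnClk stands for a dominant-negative form of the clock transcription factor Clock, and the driver that expresses it is not stated in the labels. WT flies were w; UAS-dnClk/+ and so carried the transgene with no driver named. All flies were young adults held from eclosion for 5 days in cycles of 12 h light and 12 h dark at 25 °C and then collected over 2 days, and each array holds RNA pooled from 10 fat bodies. Times are hours after the first lights on (ZT). No time point was replicated, so a fitted curve takes its error from how far single arrays of a course lie from it. That spread may be partly technical, and p-values reflect nothing else. Precision is limited by the number of arrays.

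Free fatty acids are chemically inert in most pathways until a synthetase of this kind has turned them into acyl-CoA. The acyl-CoA can then be oxidised in mitochondria and peroxisomes, built into triglyceride and phospholipid, elongated, or reduced to alcohols for waxes. The fat body, which joins functions of liver and adipose tissue, is the fly's main site of fat storage and release. Acsl is a long-chain acyl-CoA synthetase, bgm (bubblegum) is a very-long-chain one, and AcCoAS (acetyl-CoA synthetase) makes acetyl-CoA from acetate. The Acsx genes carry the family's name. Acsx1L, Acsx1R, Acsx2, Acsx3 and Acsx4 are 5 consecutive genes on chromosome arm 3R, with 0 annotated genes between them in a gene table of assembly Release 6. The protein-coding genes on either side are GluClalpha and bnl. Acsl lies on arm 2R, bgm on 2L and AcCoAS on 3L.

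The arrays of the genotypes differed before any gene was compared. Clk, the gene the transgene is named for, lay between 497.5 and 891.9 intensity units on dnClk arrays and between 64.5 and 229.5 on WT arrays. The bacterial hybridisation controls averaged 10.06 ± 0.20 log2 units on dnClk arrays (SD, n = 12) and 12.13 ± 0.30 on WT arrays (SD, n = 24), with no overlap. The log2 ratio of 3′ to 5′ signal for the Act5C controls, a measure of RNA quality and labelling, was 0.94 to 2.12 on dnClk arrays and 2.68 to 4.64 on WT arrays. How the arrays were processed and which genotype they hold therefore cannot be told apart. The mean of the fat body markers was lower on dnClk arrays, 8.32 to 8.64 log2 units against 9.41 to 10.32 on WT arrays, and 6 of the 8 markers tested fell and 1 rose. The haemocyte mean was 8.26 to 8.85 on dnClk arrays and 6.27 to 7.13 on WT arrays, and 5 of 5 haemocyte markers tested rose. Of the 8 accessory gland and ejaculatory tract markers tested 6 rose, and their mean was 6.17 to 7.33 on dnClk arrays and 5.21 to 7.61 on WT arrays. Over all probe sets tested 17.7% fell and 39.3% rose, and 26.1% and 20.3% after quantile normalization, described below. After it 5 fat body markers fell and 1 rose, 5 haemocyte markers rose, and 4 accessory gland markers rose and 1 fell. With arrays centred on their medians 3 accessory gland markers rose and 2 fell, where 11.5% of all probe sets rose and 33.9% fell. The testis mean overlapped, at 6.74 to 9.01 on dnClk arrays and 5.13 to 9.71 on WT arrays. In such bulk samples, fewer fat cells and less RNA per cell cannot be told apart.

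Acsx3 was high late in the night in both genotypes and on both days. On dnClk arrays its intensity, in the deposited linear units, was 148.6 at ZT 0, 135.9 at ZT 4, 83.4 at ZT 8, 53.3 at ZT 12, 88.0 at ZT 16 and 506.9 at ZT 20 on the first day. On the second day the same hours gave 162.5, 142.6, 81.0, 66.4, 257.2 and 404.8 on dnClk arrays. On WT arrays Acsx3 reached 752.4 at ZT 20 and 377.8 at ZT 22 on the first day, and 1658.3 at ZT 44 and 381.4 at ZT 46 on the second. The other 20 WT arrays lay between 37.3 and 170.9 with a median of 88.8, so these 4 late-night arrays stood above all others of the course. The 2 dnClk arrays at ZT 20 and ZT 44 likewise stood above the other 10, whose highest value, at ZT 40, was 257.2. The lowest value fell around the end of the day in both courses, 53.3 at ZT 12 in dnClk and 37.3 at ZT 10 in WT.

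**Figure D1:**
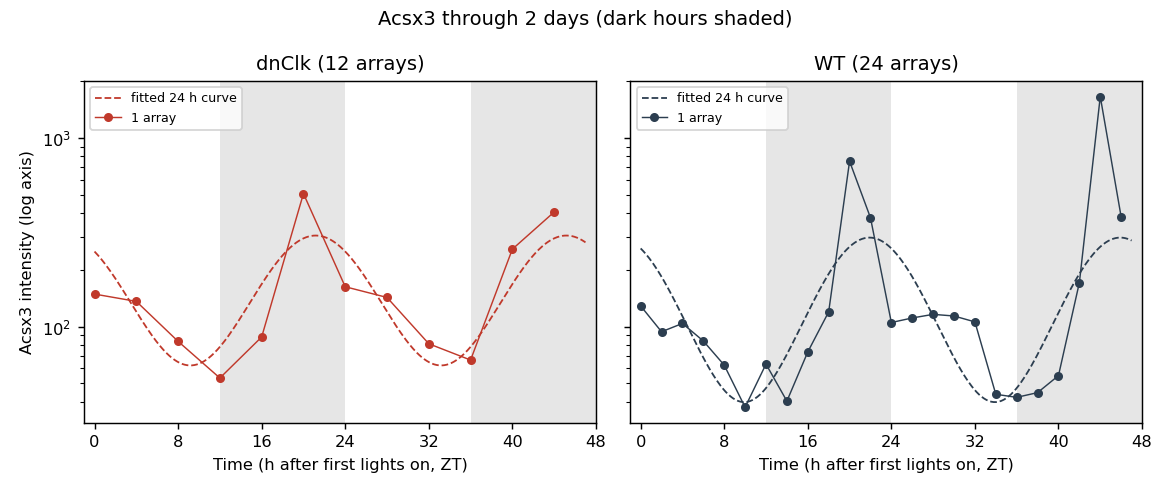
Acsx3 intensity on a log axis against time in hours after the first lights on, in dnClk (left, 12 arrays) and WT (right, 24 arrays). Each point is 1 array, the dashed line is the fitted 24 h curve and dark hours are shaded. The highest arrays are those at ZT 20 and ZT 44 in both genotypes, and the fitted curve stays below them.

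A curve of 24 h period was fitted to log2(intensity + 16), and the amplitude is how far the peak of that curve rises above its mean. In dnClk the amplitude of Acsx3 was 1.02 ± 0.21 log2 units (SE, 12 arrays), a 4.09-fold change between trough and peak, with the peak at ZT 21.2 ± 0.8 h. It ranked 93rd of the 11261 probe sets tested. The dnClk rhythm did not pass the test over all of them (limma moderated F, unadjusted p = 0.0021, adjusted p = 0.86). In that course 4 probe sets passed, 0.0355% of those tested, so the test called few rhythms of any kind. None of the 7 acyl-CoA synthetase probe sets tested was among them, and Acsx3 was the only one of the 7 with an unadjusted p under 0.05. Over all probe sets tested, 194 of 11261 had an unadjusted p under 0.05 in that course.

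In WT the fitted amplitude of Acsx3 was 1.24 ± 0.24 log2 units (SE, 24 arrays), 5.60-fold between trough and peak, with the peak at ZT 21.9 ± 0.7 h. This rhythm chose the gene, so no rank or test is read from it. Of all probe sets tested 73 were called rhythmic in WT (0.648%). The amplitude of Acsx3 was smaller in dnClk by 0.23 log2 units, with a 95% interval of the difference (dnClk minus WT) of -0.86 to 0.41, and no test is read from it because the WT value was selected. The interval holds no change as well as the loss of most of the WT amplitude.

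Leaving out the highest arrays of a course lowers its amplitude by construction. Without the dnClk array at ZT 20, the highest of its course, the dnClk amplitude was 0.86 ± 0.21. It was 0.92 ± 0.24 without the dnClk array at ZT 44, the next highest, which had the highest hybridisation control and Act5C values of that course. Without the WT arrays at ZT 20 and ZT 44 the WT amplitude was 0.88 ± 0.15 with the peak at ZT 22.9. Fitted to each day alone, the amplitude was 1.03 on the second day and 1.05 on the first in dnClk, against 1.29 and 1.20 in WT. Restricted to the 12 times that both genotypes share, the WT amplitude was 1.32 ± 0.44. With the means of the testis markers and of the accessory gland markers as covariates, the amplitude was 0.99 in dnClk and 1.37 in WT.

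On WT arrays none of the neighbours of Acsx3 had all 4 late-night arrays above the others, as Acsx3 did. The probe set shared by Acsx1L and Acsx1R had its highest WT value, 456.4, at ZT 22. It measured 26.5 at ZT 20, 27.3 at ZT 44 and 24.5 at ZT 46. On dnClk arrays only Acsx4 had both late-night arrays above all others, by a small margin. Acsx4, the next gene, measured 46.6 and 70.3 at ZT 20 and ZT 44 on dnClk arrays, against 22.4 to 46 on the other 10. On WT arrays Acsx4 was 30.2 to 48.3 on the 4 late-night arrays and 6.5 to 64.8 on the other 20, so late night did not stand apart there. The dnClk array at ZT 44 also had the highest oenocyte, accessory gland and neuron marker means of its course, and Acsx1L and Acsx2 had their highest dnClk values on it. Their part in these values was not tested. Acsx1L was 104.1 and 135.3 on the late-night dnClk arrays against 65.2 to 105.2 on the others, and 59.4 to 172.2 on the late-night WT arrays against 72.9 to 176.4. Acsx2, the neighbour on the other side, was dim throughout, between 6.3 and 33.7 on dnClk arrays and between 3.4 and 44.4 on WT arrays. It was the only one of the 8 probe sets below the filter on dim values, so it was not tested. Acsx4 passed that filter with little to spare, at means of 38.9 ± 12.4 intensity units in dnClk (SD, n = 12) and 34.7 ± 13.1 in WT (SD, n = 24).

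Acsx4 had amplitudes of 0.23 ± 0.11 log2 units in dnClk and 0.17 ± 0.11 in WT (SE, 12 and 24 arrays). Acsx1L had 0.17 ± 0.10 in dnClk and 0.11 ± 0.12 in WT, and Acsx2 had 0.16 ± 0.12 in dnClk and 0.087 ± 0.118 in WT. The median over all probe sets tested was 0.12 in dnClk and 0.13 in WT. The probe set shared by Acsx1L and Acsx1R, described next, had a larger WT amplitude.

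**Figure D2:**
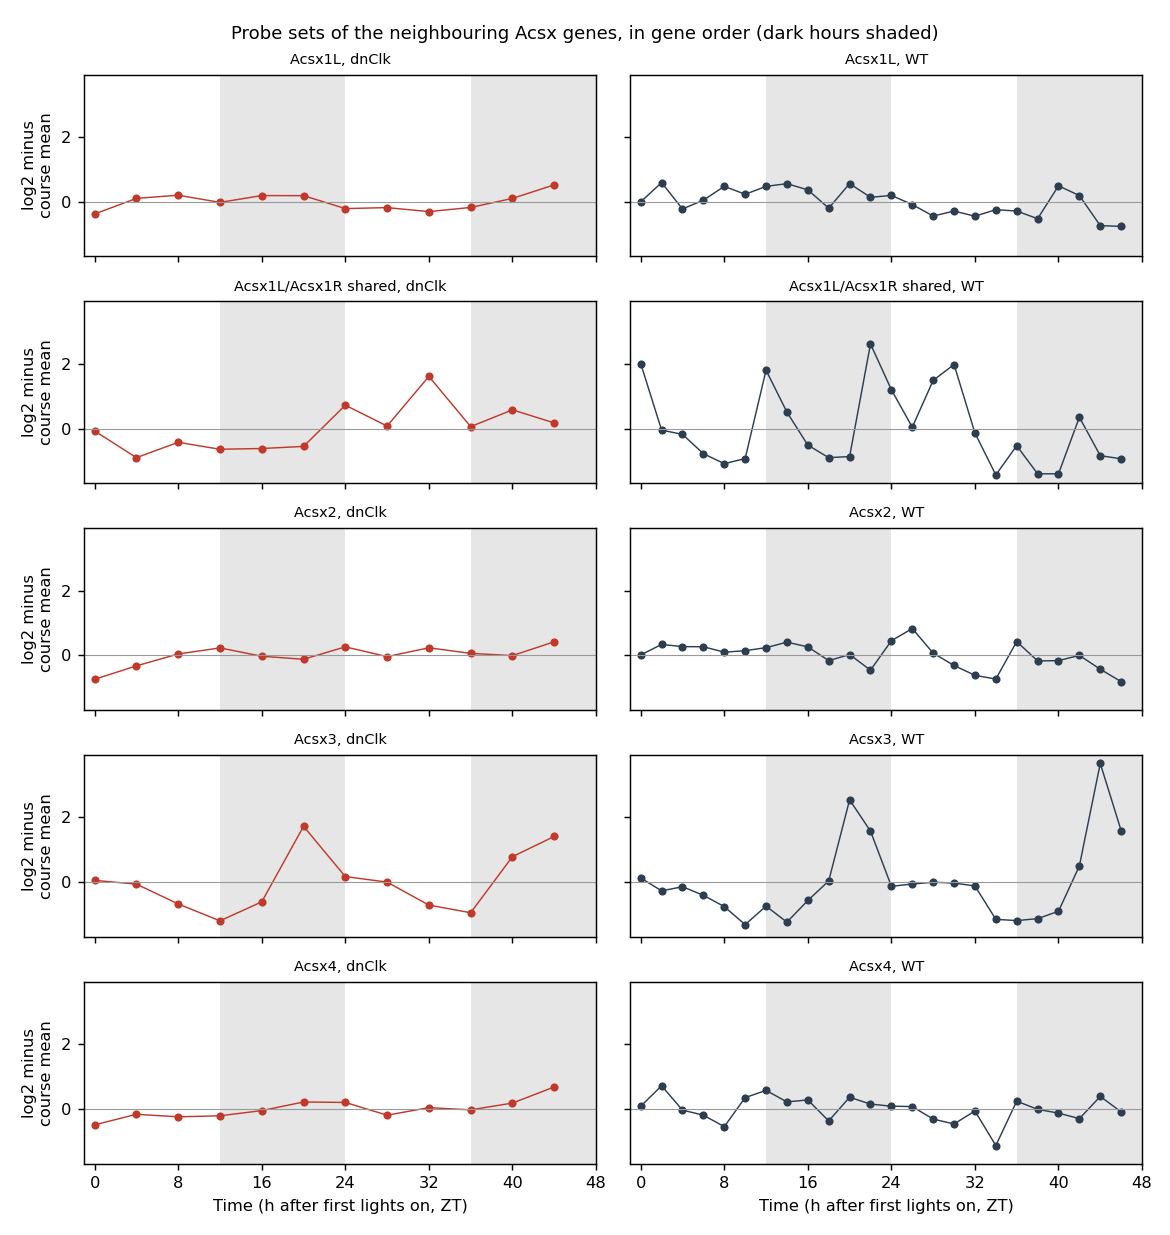
Courses of the 5 probe sets of the neighbouring Acsx genes, in gene order down the page, as log2(intensity + 16) minus the mean of the course, in dnClk (left, 12 arrays) and WT (right, 24 arrays) with dark hours shaded. Acsx3 rises at ZT 20 and ZT 44 in both columns, and the shared probe set of Acsx1L and Acsx1R swings widely in WT without repeating from day to day.

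The probe set shared by Acsx1L and Acsx1R had another pattern in each genotype. On dnClk arrays its values separated by day, and all 6 arrays of the second day, 115.6 to 369.0, lay above all 6 of the first, 51.8 to 103.9. How many of all probe sets separate fully by day was not counted. The day term in dnClk was 1.07 ± 0.26 log2 units (second minus first day, limma adjusted p = 0.083), which did not pass, and 1.45% of probe sets did. Without adjustment 2052 of 11261 probe sets had a limma day p under 0.05 in dnClk. On WT arrays the probe set ran from 12.7 to 456.4 with a median of 45.95 on the second day and 45.3 on the first. Its highest WT values were 456.4 at ZT 22, 294.3 at ZT 0, 288.1 at ZT 30 and 253.5 at ZT 12. The same hours on the other day gave 24.5 at ZT 46, 161.4 at ZT 24, 29.2 at ZT 6 and 37.6 at ZT 36, so most of the high values did not return. Its fitted amplitude was 0.11 ± 0.29 in dnClk and 0.69 ± 0.32 in WT.

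Acsx1L, read by its own probe set, was 69.4 to 135.3 on the second day and 65.2 to 105.2 on the first in dnClk, a day term of -0.09 ± 0.14 log2 units (limma adjusted p = 0.68). In WT it was 59.4 to 163.5 on the second day and 93.6 to 176.4 on the first, a day term of -0.50 ± 0.14 that did not pass over all probe sets (limma adjusted p = 0.063, against 2.35% of probe sets called). The WT term did pass without the array at ZT 36, which had the highest testis marker mean (limma adjusted p = 0.043, 9.13% called). It also passed with the testis and accessory gland covariates (limma adjusted p = 0.0016, 21% called), and had an adjusted p of 0.37 with arrays centred on their medians. The difference between the genotypes in these day terms was not tested. With no covariates and all arrays, 0 of the 7 probe sets tested passed the day test in either genotype.

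Acsl, the long-chain synthetase, had a fitted peak in the night as well, at a much smaller size than Acsx3. Its amplitude was 0.19 ± 0.08 log2 units in dnClk, with a peak at ZT 18.5, and 0.34 ± 0.10 in WT, with a peak at ZT 19.5. On dnClk arrays it measured 849.1 and 1014.1 at ZT 20 and ZT 44 and 617.6 to 1024.8 at other hours. On WT arrays it measured 1741.0 to 2813.2 late at night and 924.8 to 2301.5 at other hours, so the ranges overlapped in both genotypes. AcCoAS had amplitudes of 0.096 ± 0.064 in dnClk and 0.16 ± 0.12 in WT. The flattest curve was that of bgm, 0.077 ± 0.076 in dnClk and 0.016 ± 0.125 in WT. None of these 3 passed as rhythmic in dnClk (limma adjusted p = 0.86 for Acsl and AcCoAS and 0.90 for bgm). None of the 6 tested probe sets other than Acsx3 passed the test for a difference in rhythm between genotypes, with limma adjusted p of 0.98 or 0.99 for each. The background of that test was 0 of 11261 probe sets, with 179 at an unadjusted p under 0.05.

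**Figure D3:**
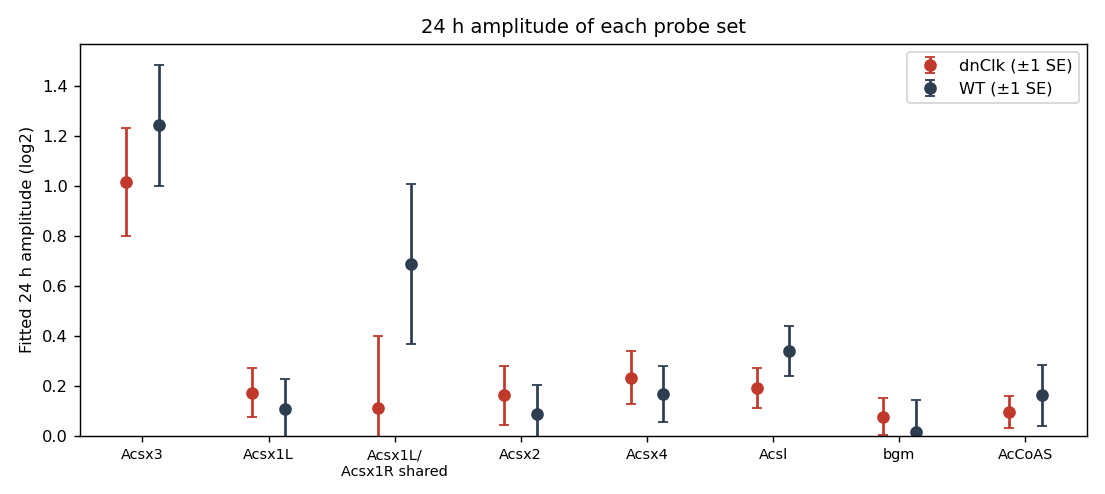
Fitted 24 h amplitude in log2 units of the 8 probe sets in dnClk (left of each pair) and WT, with bars of 1 SE. Acsx3 has the largest amplitude in both genotypes, 1.02 in dnClk and 1.24 in WT, and the next largest in WT, the probe set shared by Acsx1L and Acsx1R, has the widest bar.

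The average level over the course was not used by the rule that chose the genes, though earlier results of these data were known. It was lower in dnClk for the 3 synthetases outside the Acsx group, also the 3 brightest of the 8 probe sets. By mean intensity 3.05% of probe sets were brighter than Acsl, 1.94% than bgm and 0.69% than AcCoAS, against 22.2% to 72.1% for the Acsx probe sets. The 99th percentile of intensity was 1592.8 to 2087.7 on dnClk arrays and 2692.3 to 4438.3 on WT arrays. The part of brightness in these levels was not tested. The largest difference was that of bgm. It averaged 598 ± 71 intensity units on dnClk arrays (455.3 to 701.2; SD, n = 12) and 2421 ± 660 on WT arrays (1242.4 to 3663.9; SD, n = 24). Every dnClk array lay below every WT array, but how many of all probe sets separate as fully was not counted. In either direction 57% of all probe sets tested were called for level. The genotype term (dnClk minus WT) was -1.94 ± 0.13 log2 units, 3.84-fold lower in dnClk (limma adjusted p = 2.3e-14). Acsl averaged 823 ± 131 on dnClk arrays and 1581 ± 474 on WT arrays (SD, n = 12 and 24), and 9 of 12 dnClk arrays lay below the lowest WT array. Its genotype term was -0.89 ± 0.11 (limma adjusted p = 2.3e-08). AcCoAS averaged 2157 ± 224 on dnClk arrays and 4001 ± 1148 on WT arrays (SD, n = 12 and 24), with 2 dnClk arrays below the lowest WT array. Its genotype term was -0.83 ± 0.13 (limma adjusted p = 1.8e-06).

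The Acsx probe sets did not differ in level past the threshold. Acsx3 averaged 178 ± 143 intensity units in dnClk and 203 ± 348 in WT (SD, n = 12 and 24), with a genotype term of 0.26 ± 0.27 log2 units (limma adjusted p = 0.41). Over all alternatives its adjusted p ran between 1.2e-08, with arrays scaled to hybridisation controls, and 0.99, with quantile normalization. The term was -0.28 ± 0.13 for Acsx1L (limma adjusted p = 0.078), 0.71 ± 0.36 for the shared probe set (limma adjusted p = 0.096) and 0.13 ± 0.13 for Acsx4 (limma adjusted p = 0.37). Of the 7 probe sets tested, then, 3 were lower in dnClk and 0 higher, where 17.7% of all probe sets tested were lower and 39.3% higher. The median genotype term was -0.28 over the 7, that of Acsx1L, and 0.25 over all.

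How far these levels can be read depends on the scaling of the arrays. After quantile normalization, which forces the arrays to 1 distribution, bgm was lower in dnClk by 1.72 log2 units and Acsl by 0.59, both past the threshold, while AcCoAS turned to 0.25 higher (limma adjusted p = 0.025). In that setting 26.1% of all probe sets were lower and 20.3% higher. Acsx1L passed as lower there, at -0.61, and also with arrays centred on their medians, at -0.67, where 33.9% of all probe sets were lower and 11.5% higher. Scaled instead to the bacterial hybridisation controls, 98.5% of probe sets were higher in dnClk, Acsl and AcCoAS among them at 1.16 and 1.23, and bgm alone of the 7 did not pass at 0.10 (limma adjusted p = 0.52). Within that scaling bgm stood at -1.91 log2 units relative to the median probe set, and 0.63% of probe sets were lower in dnClk. The fat body markers fell and the haemocyte markers rose on the same arrays, as given above, and their part in the levels of bgm, Acsl and AcCoAS was not tested.

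**Figure D4:**
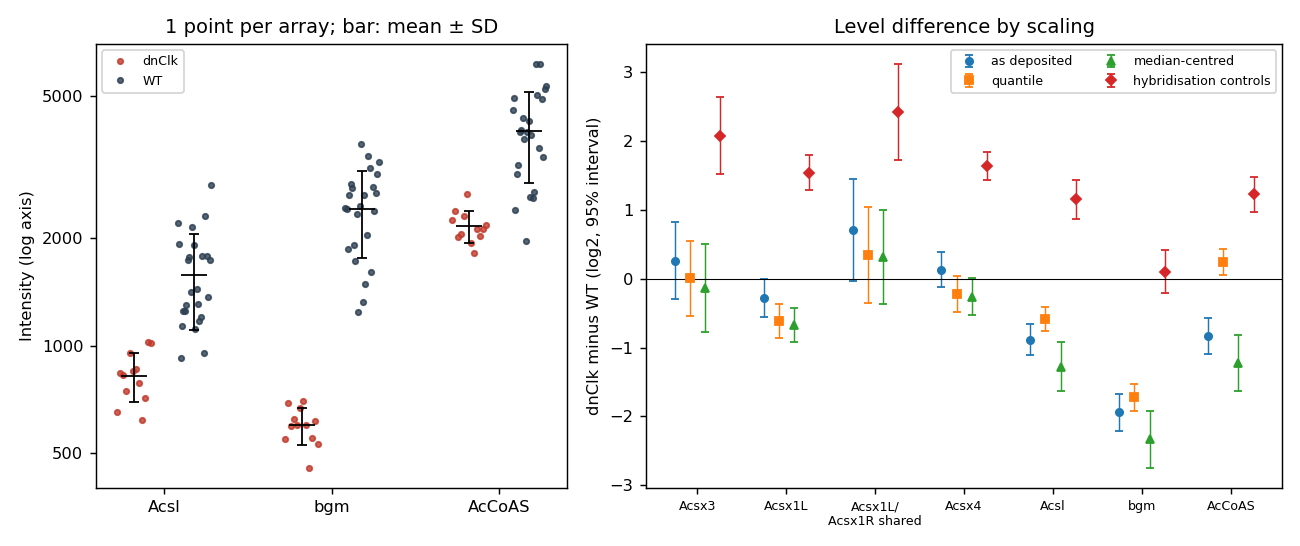
Left, intensity on a log axis of Acsl, bgm and AcCoAS on each of 12 dnClk arrays and 24 WT arrays, with mean and SD. Right, the dnClk minus WT level difference in log2 units with its 95% interval for the 7 probe sets tested, under the deposited scaling and under 3 others. AcCoAS changes sign between the deposited scaling and quantile normalization.

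Over the 24 WT arrays the genes whose log2 values followed Acsx3 most closely, among 8471 other genes, were CG7724, CG1441, CG32984, Cpr67B and CG31300. This is a description, with all values from the same arrays. Spearman's rho with Acsx3 lay between 0.53 and 0.84 for the 5 genes. For CG7724 Pearson's r was 0.90 and Spearman's rho 0.74, and r was 0.80 without the arrays at ZT 20 and ZT 44. CG7724 was also the 2nd most similar gene over the 12 dnClk arrays, with r = 0.86. By the same measure in dnClk, CG1441 ranked 199th, CG31300 382nd, Cpr67B 386th and CG32984 4973rd. CG1441, predicted to encode a fatty acyl-CoA reductase, an enzyme that uses acyl-CoA as its substrate, had r = 0.59 in dnClk and 0.87 in WT, where r was 0.85 without those 2 arrays. CG1441 measured 45.0 to 167.0 on dnClk arrays and 44 to 235.3 on WT arrays, and its fitted amplitudes were 0.47 in dnClk and 0.54 in WT with peaks at ZT 23.3 and ZT 22.3. CG32984 had r = -0.02 in dnClk and 0.81 in WT, with and without those 2 arrays. It lay between 29.2 and 76.6 intensity units on dnClk arrays and between 61.5 and 911.3 on WT arrays. Cpr67B, a cuticular protein gene, had r = 0.53 in dnClk and 0.80 in WT, or 0.67 without the 2 arrays. CG31300 had 0.53 in dnClk and 0.78 in WT, or 0.51 without them.

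Of 16 other genes of the AMP-binding synthetase and ligase family with a probe set, 7 were bright enough to test. The filter kept 60% of all probe sets by design. In level, Acsf2 and CG6178 were higher in dnClk and pdgy and Fatp3 lower, where 39.3% of all probe sets tested were higher and 17.7% lower. The acyl-CoA synthetase pdgy (pudgy) measured 1243.0 to 1992.7 on dnClk arrays and 1202.1 to 4055.9 on WT arrays, a term of -0.56 ± 0.10 log2 units (limma adjusted p = 5.9e-06). Fatp3, a fatty acid transport protein, measured 28 to 66.2 in dnClk and 64.2 to 159.9 in WT, a term of -0.89 ± 0.09 (limma adjusted p = 5.8e-10). Under quantile normalization 4 of the 7 were higher and 1 lower, against 20.3% and 26.1% of all probe sets. CG6432 alone of the 7 passed as rhythmic in WT (limma adjusted p = 0.015). Its amplitude was 0.53 ± 0.10, and its fitted peak, ZT 13.1, came earlier in the night than that of Acsx3.

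Several of the gene lists for steps that make or use acyl-CoA held more genes lower than higher in dnClk under the deposited scaling, while 98.5% of all probe sets were higher when scaled to hybridisation controls. In fatty acid synthesis 7 of 8 genes tested fell and 0 rose (under quantile normalization 4 and 1), with a median term of -1.18 log2 units. Over all probe sets tested 17.7% were lower and 39.3% higher, and 26.1% and 20.3% under quantile normalization. FASN1, a fatty acid synthase that is also 1 of the fat body markers, measured 1843.0 to 2277.9 in dnClk and 4184.9 to 8780.3 in WT. In triglyceride assembly 4 of 6 fell, among them mdy (diacylglycerol acyltransferase) and mino (glycerol-3-phosphate acyltransferase), and 2 rose, the same split as under quantile normalization. In fatty acid oxidation 9 of 13 fell and 0 rose (under quantile normalization 9 and 2), with a median of -0.49. Among the acyl-CoA binding proteins, which carry acyl-CoA in the cell, Acbp1 and Acbp2 fell and Acbp6 rose (under quantile normalization 1 fell and 0 rose). No gene of these 4 lists passed as rhythmic in WT.

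Rhythmic genes did occur among the enzymes that extend or reduce acyl-CoA. In WT 2 of 16 elongases and 4 of 13 fatty acyl-CoA reductases passed, against 0.648% of all probe sets. The lists were chosen with earlier results of these data known, so no excess is read from these counts. The elongase CG18609 (limma adjusted p = 5.9e-05) had a fitted WT peak at ZT 19.9 and an amplitude of 1.01 ± 0.12 log2 units. The reductases CG17562 and CG17560 had amplitudes of 1.40 ± 0.11 and 1.17 ± 0.10 and peaked after lights on, at ZT 3.68 and ZT 3.43. None of these 6 genes passed in dnClk, where 0.0355% of probe sets did, and none passed the test for a difference in rhythm. The amplitudes were 0.54 in dnClk and 1.01 in WT for CG18609, 0.86 and 1.40 for CG17562, and 0.62 and 1.17 for CG17560. For CG1441 they were 0.47 in dnClk and 0.54 in WT, for CG9459 0.47 and 0.53, and for Sgp 0.56 and 0.45. In level, 7 elongases fell and 5 rose, and 2 reductases fell and 3 rose (under quantile normalization 6 and 5, and 4 and 3), against the shares over all probe sets of 17.7% lower and 39.3% higher (26.1% and 20.3%). The oenocyte markers fell in 5 of 5 cases and in 1 of 5 under quantile normalization. Of these 5, Desat1 and FASN3 are counted in fatty acid synthesis and CG18609 and CG16904 among the elongases, so only Cyp4g1 adds to those counts.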

How the data were processed

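Per the submitters' processing notes, the deposited values are probe set intensities from MAS5, with no version given. The intensity columns were on a linear scale, and on every array the authors' values had a trimmed mean of 150.0 (2% off each end). All 36 columns were matched to samples by name, and no 2 arrays were identical. After 183 control probe sets were set aside, 16 was added to each intensity before log2 was taken, which shrinks the fold changes of dim probe sets. Testing was limited to the brightest 60% by mean log2 value (11261, the dimmest at 31.3). GEO's platform annotation gave 13647 probe sets 1 symbol, 402 several and 4720 none, and Entrez numbers gave current symbols from the Release 6 gene table (13544 found). The probe set labelled acs belongs to another gene than AcCoAS and was not used.

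Fits used limma 3.58.1 in R 4.3.3, tested on simulated data. Each genotype had 24 h cosine and sine terms, tested with the moderated F, with delta-method standard errors for amplitude and peak. Level is the genotype term of a joint fit with 24 h terms per genotype, difference in rhythm its genotype by cosine and sine terms, and the day term was added per genotype. Adjusted p-values are Benjamini-Hochberg over all tested probe sets, threshold 0.05. The 5 genes most like Acsx3, and from each pathway list up to 3 genes by p for level and 2 for WT rhythm, could be named. CG6178 and the lists' other named genes outside that rule were chosen after their values were seen. The genes, lists and tests were chosen with earlier results of these data known. Alternatives were the pseudocount, the filter, the scaling, tissue covariates, arrays left out, and added after seeing the data a 12 h term and the omission of the WT arrays at ZT 20 and ZT 44. No sequence is shown because the sources used here hold none for these genes.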

Additional observations from a re-analysis of the deposited data

How the results depend on the processing

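The WT amplitude of Acsx3 was 1.24 log2 units as reported, 0.96 with a pseudocount of 64 and 0.88 without WT replicates 11 and 23 (ZT 20 and ZT 44). The number of acyl-CoA synthetase probe sets higher in dnClk was 0 as reported and 1 with quantile normalization (AcCoAS), with tissue covariates (Acsx3, at 0.83, limma adjusted p = 0.042) and without WT replicates 11 and 23 (Acsx3, which had to rise once the highest WT arrays were left out). With tissue covariates 4 were lower, Acsx1L being added at -0.53 (limma adjusted p = 0.0095). Scaled to hybridisation controls, 0 were lower and 6 higher, and the level differences of Acsx1L, Acsl, bgm and AcCoAS turned to 1.54, 1.16, 0.10 and 1.23. That of AcCoAS turned to 0.25 with quantile normalization. The number with a day difference in WT was 1 (Acsx1L) with tissue covariates and without WT replicate 19 (ZT 36). The causes of these shifts were not tested. Leaving out each dnClk array in turn left 3 lower, 0 higher and 0 rhythmic in dnClk, with bgm between -1.96 and -1.91 and the dnClk amplitude of Acsx3 between 0.86 and 1.13 (limma adjusted p between 0.34 and 0.95). With ZT as the replicate block over the 12 shared times, the differences were -0.79 for Acsl, -1.84 for bgm and -0.81 for AcCoAS, and 3 were lower and 0 higher. The block pairs arrays by hour only, since the labels tie no animals across genotypes. Dropping the filter changed no count of calls among these genes, and a pseudocount of 1 none of those for level or rhythm. The files hold no detection calls, so how far dim probe sets such as Acsx2 and Acsx4 stood above background was not analysed here.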
